A study of Homo sapiens with 4 samples.

Results

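The genes described here encode the cytosolic HSP90 chaperone, 6 of its co-chaperones and the heat shock transcription factors HSF1 and HSF2. They were chosen by name, as the rows of the deposited table for HSP90AA1, HSP90AB1, AHSA1, CHORDC1, STIP1, PTGES3, CDC37, FKBP4, HSF1 and HSF2. The choice was made with earlier results of these data known. All 10 were found among the 38558 genes of the table, and all 10 passed the filter on low values in each comparison.

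HSP90 is an ATP-driven dimeric chaperone that helps kinases, steroid receptors and other client proteins reach and keep their active fold. Co-chaperones bring clients to it, set the pace of its ATP hydrolysis or hold it in a given conformation. HSF1 is the main activator of heat shock genes, and HSP90 itself is known to bind HSF1 and hold it back in cells that are not stressed. HSP90 is abundant in many tumours, ovarian carcinoma among them, and is a drug target.

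RNA was sequenced from SKOV3 and ES2, established human ovarian cancer cell lines, in 4 groups. These were SKOV3 with YY-15, SKOV3 without drug, ES2 with YY-15 and ES2 without drug. YY-15 is a compound given in the labels by this code name only. Exposure lasted 48 h, at a dose of 4 µM going by the column headings of the table. The labels name no genetic change in any group, and both lines were grown in the same medium. The labels say that control cells had no drug, and the sources used here do not say whether they received a vehicle. Each group held 1 library, made from an unstated number of cultures. There was therefore no replicate check and no test of any difference: every comparison sets 1 library against another, and no p-value is given.

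Values are FPKM as the authors deposited them, that is, fragments scaled to transcript length and to library size. The estimated counts summed to between 62522202 and 67431058 per library, and between 11781 and 12850 genes reached an FPKM of 1 in each. Of the carcinoma and epithelial markers, KRT8 and KRT18 were present in all 4 libraries, KRT8 at 12.7 FPKM or more and KRT18 at 97.7 FPKM or more. Markers also differed with YY-15. KRT8 was at 116 FPKM in SKOV3 with YY-15 and 247 in SKOV3 control, while PAX8 was at 43.7 and EPCAM at 1.15 FPKM in SKOV3 with YY-15, against 37.4 and 0.752 in SKOV3 control. Of 6 carcinoma and epithelial markers past the filter in SKOV3, 2 had a log2 ratio above 0 and 4 below. Of all genes in SKOV3, 47.3% were below 0. Of the 3 mesenchymal markers, FN1 was at 342 FPKM in SKOV3 with YY-15 and 170 in its control, ZEB1 at 8.67 FPKM with YY-15 and 5.38 in the control, and VIM at 754 FPKM with YY-15 and 782 in the control. In ES2, ZEB1 was at 4.77 FPKM with YY-15 and 9.70 in the control, FN1 at 122 FPKM with YY-15 and 138 in the control, and VIM at 1197 FPKM with YY-15 and 1208 in the control. The part of these markers in the results was not tested. PAX8 and KRT19 were at 12.5 FPKM or more in both SKOV3 libraries and at 0.119 or less in both ES2 libraries. EPCAM and CDH1 were listed at 0 in both ES2 libraries, and MUC16 was at 0.0157 FPKM or less in all 4. The leukocyte marker PTPRC and the endothelial marker PECAM1 were at 0.0501 FPKM or less throughout.

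HSF1 binds heat shock elements, inverted repeats of the unit GAA and its complement TTC spaced by 2 bases. The stretches printed here show such repeats close to a transcription start of 3 of the 10 genes. They come from RefSeq on GRCh38.p14, from windows of 250 bases before to 50 bases after a start, and run 5′ to 3′ on the strand of the gene. Capitals mark the GAA and TTC units of matches to GAANNTTC or TTCNNGAA.
HSP90AA1: tcTTCcgGAAggTTCgggaggcTTCtgGAA
HSP90AB1: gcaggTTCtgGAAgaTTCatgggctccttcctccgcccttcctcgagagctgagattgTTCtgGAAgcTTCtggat
CHORDC1: cgGAAaaTTCgcGAAggTTCctGAAacgca

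The HSP90AA1 stretch covers chr14:102087105-102087134 on the minus strand, bases 90 to 61 before the start, and overlaps an exon that GENCODE annotates for a longer HSP90AA1 transcript. The HSP90AB1 stretch covers chr6:44247773-44247848 on the plus strand, bases 170 to 95 before the start, and lies within the gene's span but in no annotated exon. The CHORDC1 stretch covers chr11:90223082-90223111 on the minus strand, bases 62 to 33 before the start. It lies just outside the span that the deposited table gives CHORDC1, and inside the first exon of a longer CHORDC1 transcript in GENCODE 29.

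The 3-unit forms GAANNTTCNNGAA and TTCNNGAANNTTC, each the reverse complement of the other, were searched together, which covers both strands. They occurred in 172 of 35116 windows (0.490%) over all genes. Of the 10 genes described here, 8 had a window in the table, and they had 14 windows between them. A 3-unit match lay in 3 of these 14 windows, in 3 of the 8 genes. HSP90AA1 had it 88 to 76 bases before the start, and HSP90AB1 had a pair of matches, 165 to 153 and 112 to 100 bases before it. CHORDC1 had 3 overlapping matches between 60 and 38 bases before its start. The shorter forms were common, GAANNTTC in 6.77% and TTCNNGAA in 7.74% of all windows, and each 3-unit match holds them. STIP1 held only the second of them. A match describes letters and does not show a bound site.

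HSP90 transcripts were among the most abundant of all in every library. HSP90AB1, which encodes the constitutive HSP90 beta (ENSG00000096384, chr6:44246166-44253888 in GRCh38), stood at 386 FPKM in SKOV3 with YY-15, 526 in SKOV3 control, 1152 in ES2 with YY-15 and 1170 in ES2 control. It was the highest of the 10 genes in all 4 libraries, and 34, 33, 16 and 16 genes of the whole table were above it in that order of libraries. HSP90AA1, which encodes the stress-inducible HSP90 alpha (ENSG00000080824, chr14:102080742-102139699), stood at 107 FPKM in SKOV3 with YY-15, 342 in SKOV3 control, 308 in ES2 with YY-15 and 389 in ES2 control. Its SKOV3 YY-15 value was the lowest of the 4 by a wide margin, and the other three lay close together. It ranked second of the 10 genes in all 4 libraries, with 199, 52, 78 and 51 genes of the table above it.

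The co-chaperones came next. STIP1 (HOP) links HSP70 to HSP90 and hands clients over, PTGES3 (p23) stabilises the closed, ATP-bound HSP90, and CDC37 brings kinases to it. In every library these 3 ranked directly below the HSP90 genes, in an order that differed between libraries. PTGES3 was above STIP1 in both SKOV3 libraries and STIP1 above PTGES3 in both ES2 libraries. CDC37 was above STIP1 in SKOV3 with YY-15 and below it in the other libraries. AHSA1, which speeds up ATP hydrolysis by HSP90, FKBP4 (FKBP52), which assists steroid receptors, and the factors HSF1 and HSF2 lay between 11.7 and 40.8 FPKM in all 4 libraries. AHSA1 and FKBP4 were neighbours in ES2, 40.8 and 40.5 FPKM with YY-15 and 37.8 and 34.9 FPKM in the control. CHORDC1 (morgana), a zinc-binding co-chaperone, was the lowest of the 10 in every library, between 4.63 and 12.8 FPKM. With 1 library a group, the order of close neighbours has no spread to be read against.

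**Figure D1:**
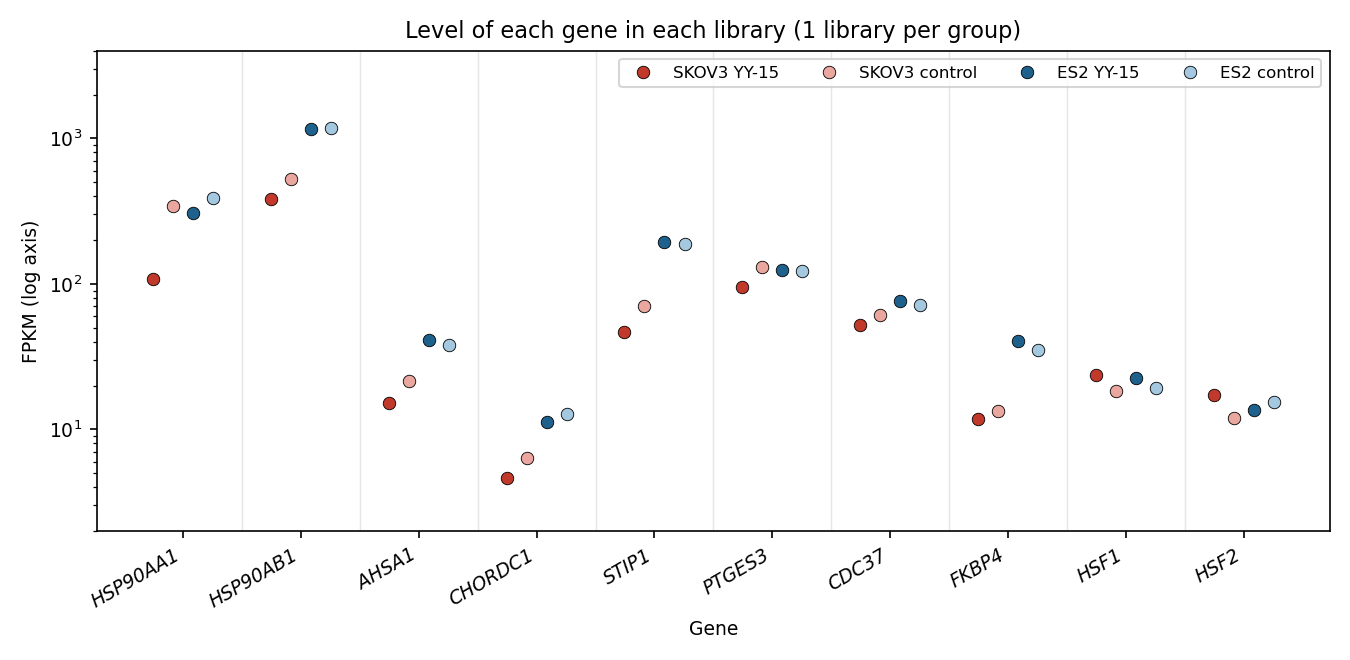
Level of the 10 genes in the 4 libraries, FPKM on a log axis, 1 point per library. HSP90AA1 in SKOV3 with YY-15 (107 FPKM) stands below its other 3 values (308 to 389 FPKM), while HSF1 lies between 18.5 and 23.4 FPKM in all libraries.

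In SKOV3, HSP90 and co-chaperone transcripts were lower in the YY-15 library than in its control, and HSF1 and HSF2 transcripts were higher. HSP90AA1 stood apart: 107 FPKM with YY-15 against 342 in the control, a change of -68.6%. All 7 of the other HSP90 and co-chaperone genes were lower by less than 2-fold, HSF1 was 26.9% higher and HSF2 44.1% higher. Sizes are log2((YY-15 FPKM + 1)/(control FPKM + 1)) over genes that reach an FPKM of 1 in either library, which understates differences of low genes. Brackets give the exact Clopper-Pearson 95% interval of the log2 ratio of library shares, computed from estimated counts with no pseudocount, so a ratio can lie just outside it. It covers counting error only, and PCR copies of a molecule are not told apart.

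HSP90AA1 had a log2 ratio of -1.66 [-1.68 to -1.65], resting on 36402 estimated counts with YY-15 and 124625 in the control. Of the 13294 genes compared, 26 had a lower ratio. It was 1 of 10 genes at least 2-fold lower, where 1.31% of all genes were, and 0 of 10 were at least 2-fold higher, where 1.66% of all genes were. In either direction the background was 2.97%. HSP90AB1 was at 386 FPKM with YY-15 against 526 in the control, a log2 ratio of -0.45 [-0.45 to -0.43], so the beta gene was lower too but by much less than the alpha gene.

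Among the co-chaperones, STIP1 (ENSG00000168439, chr11:64185272-64204543) was farthest below its control. It was at 46.7 FPKM with YY-15 and 70.1 in the control, a log2 ratio of -0.57 [-0.61 to -0.55]. AHSA1 (ENSG00000100591, chr14:77457870-77469472) was at 15.1 FPKM with YY-15 and 21.6 in the control, at -0.49 [-0.58 to -0.44]. PTGES3 (ENSG00000110958, chr12:56663341-56688408) was at 95.4 FPKM with YY-15 and 131 in the control, at -0.45 [-0.47 to -0.42]. All 3 were lower with YY-15, by as much as HSP90AB1 or a little more. CHORDC1 (ENSG00000110172, chr11:90200429-90223077) was at 4.63 FPKM with YY-15 and 6.37 in the control. Its log2 ratio was -0.39 [-0.52 to -0.39], and the pseudocount weighs most on it because it is the lowest of the 10 genes. Both remaining co-chaperones lay nearer to their control values. CDC37 (ENSG00000105401, chr19:10391133-10403542) was at 52.5 FPKM with YY-15 and 61.3 in the control, at -0.22 [-0.25 to -0.18]. FKBP4 (ENSG00000004478, chr12:2794970-2805423) was at 11.7 FPKM with YY-15 and 13.4 in the control, at -0.18 [-0.25 to -0.13].

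The transcription factors went the other way. HSF1 (ENSG00000185122, chr8:144291591-144314720) was at 23.4 FPKM with YY-15 against 18.5 in the SKOV3 control, a log2 ratio of 0.33 [0.30 to 0.40]. HSF2 (ENSG00000025156, chr6:122399652-122433119), a paralogue that can pair with HSF1 on heat shock elements, was at 17.3 FPKM with YY-15 and 12.0 in the control. Its ratio was 0.49 [0.45 to 0.61]. HSF1 acts after translation through trimer formation and phosphorylation, so a transcript level does not report its activity.

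Over the 10 genes the median log2 ratio in SKOV3 was -0.42, and over all 13294 genes it was 0.02, with the central 95% of genes between -0.81 and 0.86. Of the 10 genes 8 were below 0, where 47.3% of all genes were. Each of the 10 except HSP90AA1 lay inside that central range. Whether ratios of this size recur between cultures was not tested.

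**Figure D2:**
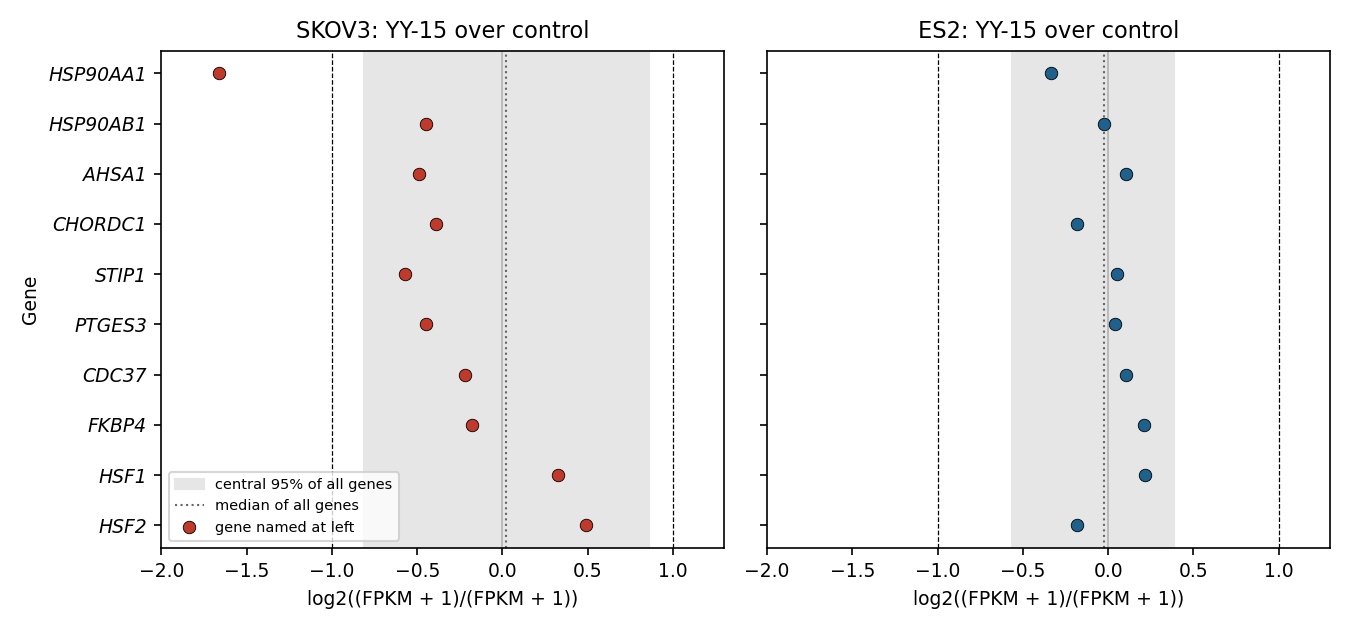
Log2 ratio of YY-15 over control for the 10 genes in SKOV3 (left) and ES2 (right), 1 library per group; grey marks the central 95% of all genes, the dotted line their median and dashed lines 2-fold. HSP90AA1 in SKOV3 (-1.66) is the only point past 2-fold in either panel.

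In ES2 the same genes stood close to their control values. HSP90AA1 was at 308 FPKM with YY-15 and 389 in the control, a change of -20.9%, and had the lowest ratio of the 10 there as well, at -0.34 [-0.35 to -0.33]. Of 12341 genes, 1083 had a lower ratio. HSP90AB1 was at 1152 FPKM with YY-15 and 1170 in the control, at -0.02 [-0.03 to -0.01]. None of the 10 genes was 2-fold different in ES2, where 0.835% of all genes were (0.486% lower and 0.348% higher), so a count of 0 is near what the background gives. Of the 10, 4 were below 0, where 54.3% of all genes were.

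FKBP4 had the highest co-chaperone ratio in ES2, 40.5 FPKM with YY-15 against 34.9 in the control, at 0.21 [0.18 to 0.25]. AHSA1 was at 40.8 FPKM with YY-15 and 37.8 in the control (0.11 [0.07 to 0.16]). CDC37 was at 76.7 FPKM with YY-15 and 71.1 in the control (0.11 [0.08 to 0.14]). These 3 genes were slightly higher with YY-15. STIP1 was at 194 FPKM with YY-15 and 187 in the control, at 0.05 [0.03 to 0.07]. PTGES3 was at 125 FPKM with YY-15 and 122 in the control, at 0.04 [0.02 to 0.06]. CHORDC1 was at 11.2 FPKM with YY-15 and 12.8 in the control, at -0.18 [-0.24 to -0.15]. STIP1 and PTGES3 were thus nearly level with the control, and CHORDC1 lay slightly below it. HSF1 was at 22.4 FPKM with YY-15 and 19.2 in the control, 16.9% more, at 0.22 [0.18 to 0.27], so it was higher in both lines. HSF2 was at 13.6 FPKM with YY-15 and 15.5 in the control, at -0.18 [-0.27 to -0.12], and so lay on opposite sides of its control in the 2 lines. The median over the 10 genes was 0.04 in ES2, over all genes -0.02.

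Ratios in ES2 went with base composition. Across 12010 genes with an annotated transcript, the log2 ratio had a Spearman correlation of 0.430 with the GC content of the longest transcript, against 0.0101 across 12924 genes in SKOV3. These are correlations across genes of the same libraries. Median ratios in ES2 ran between -0.20 in the tenth of genes poorest in GC and 0.08 in the richest. The 10 genes span most of that range. CHORDC1 is at 35.0% GC, HSF2 at 40.5%, PTGES3 at 42.9% and HSP90AA1 at 45.2%. CDC37 is at 60.0% and HSF1 at 64.7%. With the trend on length and GC removed, the ES2 ratio was -0.32 for HSP90AA1, 0.17 for FKBP4, 0.12 for HSF1 and -0.09 for HSF2. For PTGES3 it was 0.08, for HSP90AB1 -0.07 and for AHSA1 0.0045. The same step gave 0.04 for CHORDC1, -0.04 for STIP1 and -0.02 for CDC37, each on the other side of 0. The small ES2 differences of these 3 genes therefore have no settled direction.

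**Figure D3:**
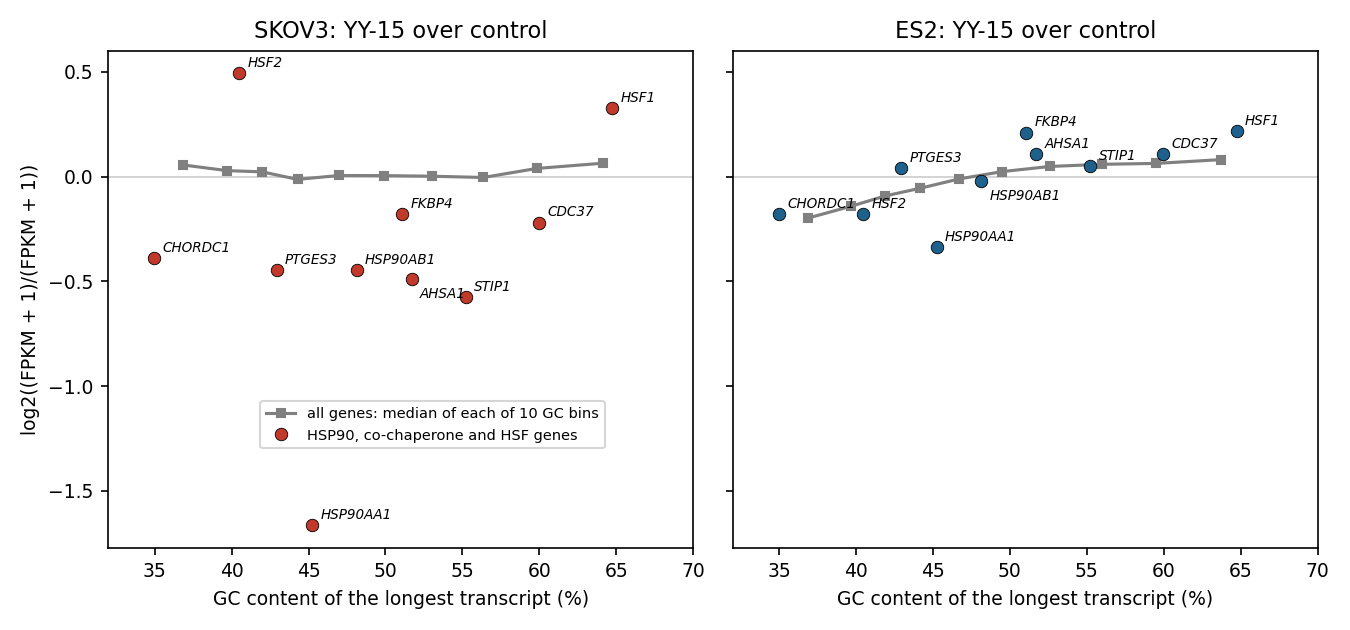
Log2 ratio of YY-15 over control against GC content of the longest annotated transcript, in SKOV3 (left) and ES2 (right); grey squares are medians of all genes in 10 GC bins. In ES2 most of the 10 genes lie near the grey trend. HSP90AA1 (-0.34 at 45.2% GC) lies below it. FKBP4 (0.21 at 51.1% GC), HSF1 (0.22 at 64.7% GC) and PTGES3 (0.04 at 42.9% GC) lie above it. In SKOV3 the trend is flat.

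Set side by side, the SKOV3 ratio was below the ES2 ratio for 8 of the 10 genes, where 46.3% of 11028 genes passing the filter in both lines were. HSP90AA1 had a difference of -1.33 in log2, and 67 of those genes had a lower one. It was the only one of the 10 at or below -1, where 1.58% of genes were. STIP1 (-0.62), AHSA1 (-0.60), PTGES3 (-0.49) and HSP90AB1 (-0.42) followed. HSF2 had the highest difference at 0.67, and HSF1 differed by 0.11. The median difference was -0.41 for the 10 genes and 0.04 for all genes. In 6 of the 10 genes both lines lay on opposite sides of 0 with neither counting interval reaching 0, where 30.4% of the 11028 genes did. Counting intervals narrow as counts rise, and the 11028 genes were not matched to the 10 on counts, so the shares are not like for like. None of these differences between lines could be tested.

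The balance of alpha and beta transcripts differed between libraries. HSP90AA1 made up 21.8% of the summed FPKM of HSP90AA1 and HSP90AB1 in SKOV3 with YY-15 and 39.4% in SKOV3 control. In ES2 it made up 21.1% with YY-15 and 24.9% in the control. The SKOV3 control was thus the library richest in the alpha gene, and with YY-15 the SKOV3 proportion lay near that of both ES2 libraries. The beta gene exceeded the alpha gene 3.59-fold in SKOV3 with YY-15, 1.53-fold in SKOV3 control, 3.74-fold in ES2 with YY-15 and 3.01-fold in ES2 control. By estimated counts, which favour the longer transcript, the alpha share was 32.3%, 52.7%, 31.4% and 36.2% in the same order of libraries. The SKOV3 control was again highest.

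**Figure D4:**
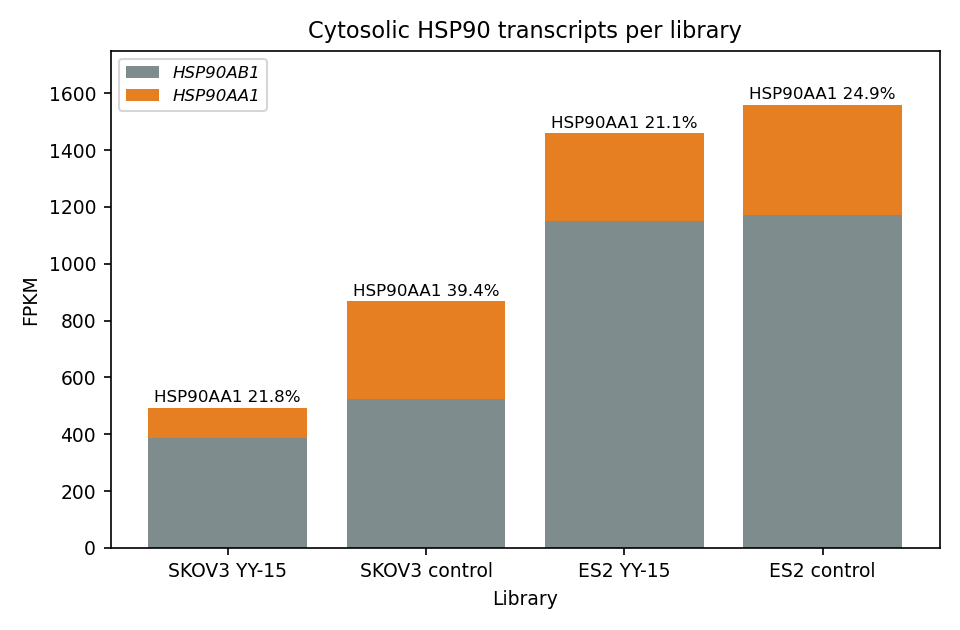
Stacked FPKM of HSP90AB1 (grey) and HSP90AA1 (orange) in the 4 libraries, with the HSP90AA1 percentage above each bar. The SKOV3 bars sum to 493 FPKM with YY-15 and 868 FPKM in the control, and the ES2 bars to 1460 FPKM with YY-15 and 1560 FPKM in the control.

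Summed by role, the 6 co-chaperones came to 226 FPKM in SKOV3 with YY-15, 303 in SKOV3 control, 488 in ES2 with YY-15 and 466 in ES2 control. HSF1 and HSF2 together came to 40.7, 30.5, 36.0 and 34.7 FPKM in the same order of libraries. All 10 genes made up 0.326% of the FPKM of the SKOV3 YY-15 library, against 0.498% in its control, and 0.739% of the ES2 YY-15 library, against 0.791% in its control. The SKOV3 YY-15 library thus held the smallest HSP90 and co-chaperone pool and the largest HSF pool. In bulk RNA, fewer cells with a transcript and less of it per cell cannot be told apart.

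The lines also differed without drug. Untreated SKOV3 was below untreated ES2 for 9 of the 10 genes, where 46.8% of 14024 genes were, with PTGES3 the exception. HSP90AB1, STIP1 and FKBP4 were at least 2-fold lower in SKOV3, 3 of 10 genes where 12.5% of all genes were, and none was 2-fold higher, where 16.2% were. In either direction the background was 28.7%. HSP90AB1 was at 526 FPKM in SKOV3 and 1170 in ES2, a log2 ratio of -1.15 [-1.17 to -1.14]. STIP1 was at 70.1 in SKOV3 and 187 in ES2, at -1.40 [-1.44 to -1.40]. FKBP4 was at 13.4 in SKOV3 and 34.9 in ES2, at -1.32 [-1.43 to -1.33]. CHORDC1 was just short of 2-fold at -0.91 with the pseudocount of 1. Without a pseudocount its FPKM was 2.01-fold lower in SKOV3, and its counting interval reached from -1.06 to -0.96. AHSA1 followed at -0.78. HSP90AA1 (-0.18), CDC37 (-0.21), HSF2 (-0.34) and HSF1 (-0.05) were closer to equal, and PTGES3 was at 0.10. Lower STIP1, FKBP4, CHORDC1 and AHSA1 levels in SKOV3 were thus present without drug, while HSP90AA1 was nearly level between the untreated lines.

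The wider pathway was read from 5 lists of genes, chosen with earlier results of these data known. Their counts are therefore descriptions and not independent support. Of 18 further HSF1 target genes, 17 were below 0 in SKOV3, where 47.3% of all genes were, and 5 at least 2-fold lower, where 1.31% were. Their median was -0.56 beside 0.02 for all genes. The 5 are chaperones of the HSP70 and chaperonin systems. HSPA8, the constitutive HSC70, was at 70.7 FPKM with YY-15 and 282 in the SKOV3 control, a log2 ratio of -1.98. HSPA1A and HSPA1B, the inducible HSP70 genes, were at -1.89 and -1.86. These are near-identical copies whose reads may be split between them, so each single value is uncertain. HSPE1, the mitochondrial co-chaperonin, was at -1.16 and DNAJA1, an HSP40 partner of HSP70, at -1.08. In ES2 9 of the 16 target genes past the filter were above 0 and 7 below, where 54.3% of all genes were below, 0 were 2-fold different, where 0.835% were, and the median was 0.02. HSPA8 was at 368 FPKM with YY-15 and 359 in the ES2 control. HSP90AA1, HSP90AB1, AHSA1, CHORDC1 and STIP1 are themselves known HSF1 targets and are not counted in this list.

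Other HSP90 co-chaperones were centred near 0 in SKOV3. Of 23 past the filter, 10 were above 0 and 13 below, where 47.3% of all genes were below. Their median was -0.03, and 0 were at 2-fold, where 2.97% of all genes were. CACYBP, an adaptor of ubiquitin ligation, was at 13.7 FPKM with YY-15 and 22.0 in the control (-0.64), and NUDC, a partner of dynein, at 33.2 FPKM with YY-15 and 47.7 in the control (-0.51). FNIP1, an inhibitor of HSP90 ATP hydrolysis, was higher, at 5.86 FPKM with YY-15 and 4.11 in the control (0.42). In ES2 13 of 22 were above 0 and 9 below, where 54.3% of all genes were below. Their median was 0.06, and RPAP3, a subunit of the R2TP complex, was at 6.73 FPKM with YY-15 and 9.66 in the control (-0.46).

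Among the HSF family and HSF1 regulators, 7 of 10 were above 0 in SKOV3 and 3 below, with a median of 0.05. Below 0 were 47.3% of all genes, so the split was not far from the background. SIRT1, a deacetylase that prolongs HSF1 binding to DNA, was at 11.9 FPKM with YY-15 and 8.53 in the control (0.44). RPA1, which helps HSF1 reach nucleosomal DNA besides its role in replication, was at 16.1 FPKM with YY-15 and 30.5 in the control (-0.89), and HSBP1, an HSF1-binding protein, at 6.18 FPKM with YY-15 and 8.68 in the control (-0.43). In ES2 4 of 9 were above 0 and 5 below, where 54.3% of all genes were below. Their median was -0.00, and HSF4 was at 1.53 FPKM with YY-15 and 2.44 in the control (-0.44).

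Genes of HSP90 clients split evenly, near the 47.3% of all genes below 0 in SKOV3 and 54.3% in ES2. In SKOV3 9 of 18 were above 0 and 9 below (median 0.03), and in ES2 10 of 20 were above and 10 below (median -0.00). At 2-fold there were 0 in either line, where 2.97% of all genes were in SKOV3 and 0.835% in ES2. HIF1A was at 314 FPKM with YY-15 and 181 in the SKOV3 control (0.79), and ULK1, an autophagy kinase, at 16.1 FPKM with YY-15 and 10.95 in the control (0.52). PLK1, a mitotic kinase, was at 18.6 FPKM with YY-15 and 29.8 in the control (-0.65), and RIPK1 at 4.57 FPKM with YY-15 and 7.26 in the control (-0.57). HSP90 acts on client proteins, so transcripts of clients do not measure its activity.

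**Figure D5:**
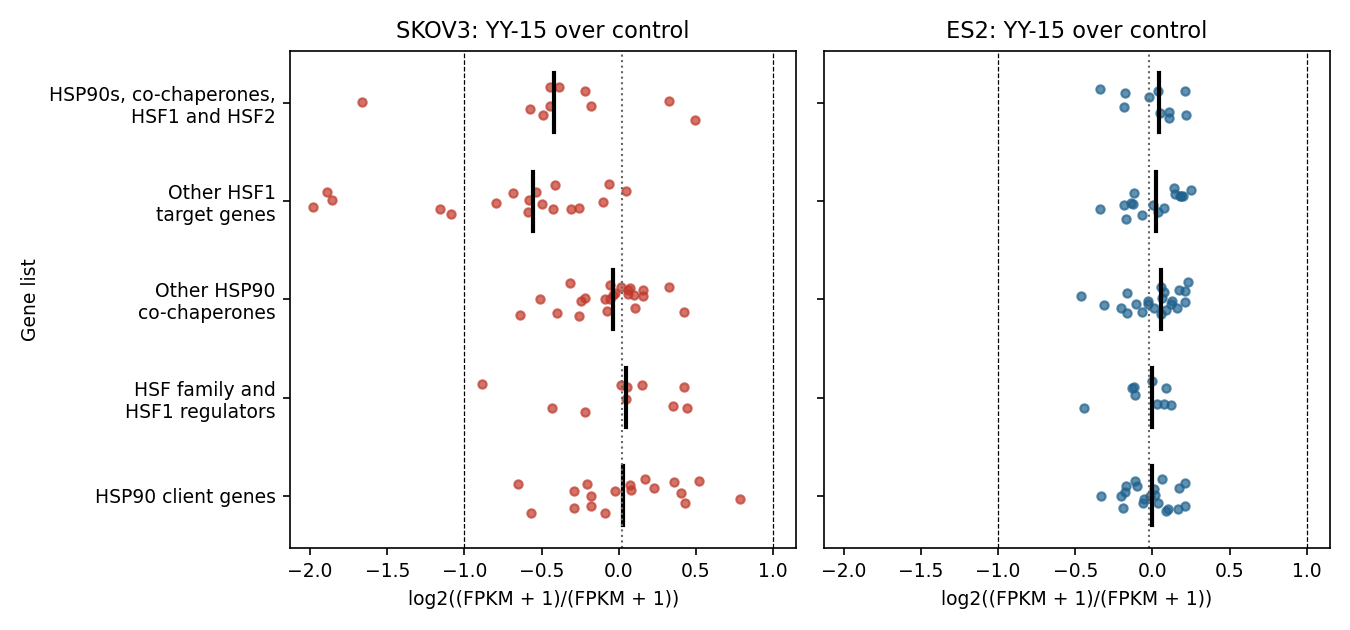
Log2 ratio of YY-15 over control for the 10 genes and 4 lists of related genes in SKOV3 (left) and ES2 (right), 1 point per gene past the filter, with black bars at list medians, the dotted line at the median of all genes and dashed lines at 2-fold. Other HSF1 targets have a median of -0.56 in SKOV3 and 0.02 in ES2, while other co-chaperones and clients centre near 0 in both lines.

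Of 17 rows for other HSP90 family genes and pseudogenes, 6 passed the filter in SKOV3, 2 above 0 and 4 below (median -0.10). In ES2 7 passed, 3 above 0 and 4 below (median -0.24). Over all genes, 47.3% were below 0 in SKOV3 (median 0.02) and 54.3% in ES2 (median -0.02). HSP90B1 (GRP94, of the endoplasmic reticulum) was at 89.5 FPKM with YY-15 and 94.3 in the SKOV3 control (-0.08), and at 58.3 FPKM with YY-15 and 73.2 in the ES2 control (-0.32). TRAP1, of mitochondria, was at 19.3 FPKM with YY-15 and 18.1 in the SKOV3 control (0.08) and at 43.8 FPKM with YY-15 and 40.0 in the ES2 control (0.13). Their SKOV3 ratios were both near 0, where HSP90AA1 was at -1.66. The pseudogene HSP90AA2P was at 1.498 FPKM with YY-15 and 3.40 in SKOV3 control (-0.82), and at 3.10 with YY-15 and 4.88 in ES2 control (-0.52). Reads of HSP90AA1 could be counted there, so its value is uncertain. AHSA2P, which has 2 rows, was at 3.82 FPKM with YY-15 and 5.16 in the ES2 control in its expressed row (-0.35). In SKOV3 that row was at 7.74 FPKM with YY-15 and 6.70 in the control (0.18). PTGES3P3 was at 1.42 FPKM with YY-15 and 0.851 in the ES2 control (0.38), on only 49 and 28 estimated counts. Adding pseudogenes to their parents left the HSP90AA1 proportion at 21.9% in SKOV3 with YY-15 and 39.6% in its control.

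The genes whose pattern was most like that of HSP90AA1 were ranked by Euclidean distance over 3 log2 ratios, those of YY-15 in each line and of the untreated lines, among 8090 genes reaching an FPKM of 5. PCNA, the sliding clamp of DNA replication, was nearest at a distance of 0.267, with log2 ratios of -1.50 in SKOV3 and -0.13 in ES2. LRRC17 (0.326), ANLN (0.329), MCM4 (0.377) and DLGAP5 (0.378) came next. These ratios come from 4 libraries, and the untreated ratio shares its controls with the others.

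Other genes with the 3-unit heat shock element near a start were centred near 0. In SKOV3 45 such genes outside the 10 had a median log2 ratio of 0.01, as did the 9641 genes with a window, and 2 of the 45 (4.44%) were at least 2-fold lower, beside 0.902% of genes with a window. In ES2 42 such genes had a median of -0.08, beside -0.02 for genes with a window. Of the 42, 1 (2.38%) was at least 2-fold lower, beside 0.166% of genes with a window. HSP90AB1 and CHORDC1 also hold a 3-unit match, and the SKOV3 ratios were -0.45 for HSP90AB1, -0.39 for CHORDC1 and -1.66 for HSP90AA1. The part of the element in any of these ratios was not tested.

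No measured gene that reached an FPKM of 1 overlapped any of the 10 on the same strand. ENSG00000212371, in AHSA1, RN7SL809P, in PTGES3, and MIR1181, in CDC37, were below that level. ENSG00000212371 was at 0.136 FPKM with YY-15 and 0.891 in SKOV3 control, and at 0.189 with YY-15 and 0.410 in ES2 control. On the opposite strand WDR20 overlaps HSP90AA1, ENSG00000289486 overlaps STIP1 and DGAT1 overlaps HSF1. ENSG00000289486 was at 1.59 FPKM with YY-15 and 0.662 in SKOV3 control, and at 4.54 with YY-15 and 3.67 in ES2 control, where STIP1 was between 46.7 and 194 FPKM. WDR20 was between 2.06 and 2.77 FPKM. DGAT1 was at 11.3 FPKM with YY-15 and 11.02 in SKOV3 control, and at 8.93 with YY-15 and 7.30 in ES2 control. If counting ignored strand, reads of each pair could not be told apart where they overlap, and that was not tested.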

How the data were processed

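Per the labels' protocols, poly(A) RNA was made into dUTP-marked, paired-end libraries amplified by PCR, and molecular identifiers are not mentioned. The labels name different sequencers. The submitters' processing notes list StringTie 2.1.6, HISAT2 2.2.1, cutadapt 1.9, edgeR and DESeq2 without their roles, and the mouse build mm10. All 38558 gene identifiers are human, however. Of the 35576 found in GENCODE 29, 35566 overlap the same gene there, so GRCh38 is used for coordinates. The authors deposited FPKM and whole-number counts per gene, per the file headers. The deposited counts are treated here as estimated counts, made by the authors in a way the sources do not state, since 210 to 229 genes in each library pair a count of 1 with an FPKM below 0.001. The sources do not say whether strand was used in counting.

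Columns were matched to groups by the line and the control or dose they name. Log2 ratios with a pseudocount of 1 were computed over genes reaching an FPKM of 1 in a library compared, and a log2 ratio at or beyond 1 in size is called 2-fold. The calculation was tested on simulated data that held counting error only, so that test does not cover variation between cultures. The 10 genes and the gene lists were chosen with earlier results of these data known. From each list up to 4 genes with the largest ratio in either line are named, with DNAJA1 and TRAP1 added after their values were seen. The settings varied were the pseudocount (0.1 and 5), the filter (none, or 5 FPKM), TPM, median centring, estimated counts scaled to 1000000 per library, a local regression (span 0.3) on transcript length and GC content, and the size called (1.5-fold and 3-fold). Software was Python 3.11.15 with numpy 2.4.6, pandas 2.3.3, scipy 1.17.1, statsmodels 0.14.6 and matplotlib 3.10.9.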

Additional observations from a re-analysis of the deposited data

Results flagged for a closer look

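For 6 of the 10 genes the YY-15 library lay on one side of its control in SKOV3 and on the other side in ES2, with neither counting interval reaching 0. The same held for 3358 of the 11028 genes past the filter in both lines (30.4%), which were not matched to the 10 on counts. The SKOV3 log2 ratio minus the ES2 log2 ratio was -0.62 for STIP1, -0.60 for AHSA1, -0.49 for PTGES3, -0.39 for FKBP4 and -0.33 for CDC37, all lower in SKOV3 and higher in ES2. It was 0.67 for HSF2, higher in SKOV3 and lower in ES2. With 1 library per group these differences were not tested. The ES2 ratio crossed 0 under at least 1 alternative for STIP1 (lowest -0.04), PTGES3 (lowest -0.005) and CDC37 (lowest -0.02). For AHSA1, FKBP4 and HSF2 it stayed on its side of 0 under the 6 alternatives that recompute a gene's ratio, although AHSA1 came to 0.00 with the length and GC trend removed.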

How the results depend on the processing

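No paired analysis was possible because the labels give no replicate numbers and each group holds 1 library; for the same reason no library could be left out. HSP90AA1 in SKOV3 ranged from -1.69 to -1.62, and each of the 10 genes stayed on its side of 2-fold in all 3 comparisons. Leaving out the pseudocount was not among these settings, and without it CHORDC1 was 2.01-fold lower in untreated SKOV3 than in untreated ES2. All 10 kept their sign in SKOV3, 6 in ES2 and 9 between the untreated lines, where HSF1 ran from -0.29 to 0.06. The median over the 10 genes was -0.32 in SKOV3 and -0.46 between untreated lines with a pseudocount of 5. With TPM it was 0.0009 in ES2 and -0.47 between untreated lines, and the median difference between lines was -0.32. With the length and GC trend removed it was -0.0097 in ES2 and -0.46 between untreated lines, and with median centring it was -0.63 between untreated lines. Between untreated lines, 5 genes passed 1.5-fold and 0 passed 3-fold. The share of all genes at those sizes is not given here, so these counts have no background to be read against. Estimated counts gave HSP90AA1 shares of 32.3% in SKOV3 with YY-15, 52.7% in its control, 31.4% in ES2 with YY-15 and 36.2% in its control. The background share at least 2-fold lower in SKOV3 depended strongly on the setting, from 0.436% with a pseudocount of 5 to 3.95% with TPM. At 1 library per group, depth is not the limit: the spread between cultures is unknown.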
